A study of Bos taurus with 56 samples.

Results

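Open chromatin of bovine (Bos taurus) 16-cell embryos was compared with that of morulae that carry no in vivo label, over all peaks of both ATAC-seq lists. ATAC-seq uses a transposase that cuts and tags accessible DNA, so that sequenced fragments pile up as peaks where chromatin is open. The 16-cell list held 75925 peaks and the morula list 88858, together 164783 of the 673059 peaks in the 11 lists of the study. Membership needed no threshold on a measured value, since every peak of either list was included. Peaks of the lists that had 1 bp or more in common were called shared. Joining overlapping peaks of both lists gave 127729 regions, of which 32082 (25.1%) were shared, 40100 (31.4%) were 16-cell only and 55547 (43.5%) were morula only.

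The 16-cell group had 5 libraries and the morula group 6, each made from pooled embryos, and, per the series description, the peaks of a group's libraries were merged into 1 list. The labels name the stage and give no strain, treatment, embryo number or way of production for these groups. Of the other lists, those of 8-cell embryos (5 libraries, 59186 peaks), morulae labelled as derived in vivo (4 libraries, 57039 peaks) and day 14 elongating embryos (6 libraries, 372509 peaks) were used as further readouts. The lists hold positions only, so sequencing depth is unknown, no replicate spread could be computed and no p-value is given. A longer list or wider peaks cannot be told apart from deeper sequencing or a looser peak threshold. Percentages carry a 95% exact Clopper-Pearson interval in brackets, which reflects counting error alone and takes peaks as independent of their neighbours.

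In cattle, the embryo's own genome is switched on in its major wave around the 8-cell to 16-cell stage, when maternal transcripts give way to embryonic ones. The blastomeres then flatten against each other and compact into the morula, in which inner and outer cells begin to take different paths, towards the inner cell mass and the trophectoderm of the blastocyst. By day 14 the conceptus is elongating, a phase specific to ruminants and related species in which the trophectoderm makes up most of the tissue. Accessible sites at these stages include promoters and distal enhancers.

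Fewer peaks had a counterpart in the other list than lacked one, though for the 16-cell list this depended on how peaks were matched. Of the 16-cell peaks, 35825 (47.2%, 46.8% to 47.5%) had a morula peak, and of the morula peaks 33311 (37.5%, 37.2% to 37.8%) had a 16-cell peak. Counted in bases, 49.7% of the 41.8 Mb covered at the 16-cell stage and 31.6% of the 65.7 Mb covered in the morula were open in both. The morula list thus covered 1.57 times the length of the 16-cell list with 1.17 times as many peaks. At the edge of the 1 bp rule, 125 of the regions with 1 peak of each list rested on 10 bp or less, whereas 130 of the 16-cell only and 112 of the morula only peaks missed a peak of the other list by 10 bp or less. The median distance from an unshared peak to the nearest peak of the other list was 7358 bp for 16-cell only and 9050 bp for morula only peaks. Under a stricter rule, in which the overlap had to cover 50% of both peaks, 22.8% of the 16-cell and 19.5% of the morula peaks were shared. With peaks widened by 250 bp the shares were 50.3% and 39.96%, and with only peaks of at least 464 bp, the median width of both lists together, they were 61.2% and 37.5%.

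Shared peaks were the wide ones in both lists. Among 16-cell peaks the median width was 578 bp for shared and 340 bp for unshared peaks, and among morula peaks it was 884 bp and 420 bp. In the narrowest quintile of 16-cell peaks, up to 278 bp, 24.7% (24.1% to 25.4%) were shared, against 82.4% (81.8% to 83.0%) in the widest quintile, which began at 748 bp. The morula list showed the same order, from 15.0% (14.5% to 15.5%) in its narrowest quintile to 75.4% (74.8% to 76.1%) in its widest. A wide peak has more room to meet another peak, so comparisons of presence are given by width below.

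Most shared regions, 27968 of 32082 (87.2%), held exactly 1 peak of each list. In 2949 regions (9.19%) 1 morula peak spanned 2 or more 16-cell peaks, whereas in 867 (2.70%) 1 16-cell peak spanned 2 or more morula peaks. A morula peak of 11047 bp on chromosome 11, between 49963246 and 49974292 (UMD3.1, the build of all positions here), was the widest of its list and covered 7 separate 16-cell peaks with 7642 bp in all. The same interval met 6 peaks at the 8-cell stage, 6 in the in vivo morula and 5 at day 14, the last with 1311 bp in all. The 16-cell peak of greatest width (7203 bp), between 58059934 and 58067136 of chromosome 12, met a single morula peak of 9179 bp. Another 7 peaks at the 16-cell stage lay under a morula peak of 9761 bp in the region on chromosome 10 from 42662704 to 42672704, and 6 under the morula peak on chromosome 21 from 69805830 to 69812028. In the opposite direction, the 16-cell peak on chromosome 6 from 49139501 to 49144979 faced 4 morula peaks of 3735 bp in total and overlapped an 8-cell peak of 8821 bp. Regions of the same kind lay on chromosome 13 from 83925034 to 83928972, with 4 morula peaks, and on chromosome 7 from 79344180 to 79348705, with 3. In all 3 of these regions no day 14 peak was found.

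At regions with 1 peak of each list, the morula peak was usually the wider one. Median width was 585 bp at the 16-cell stage and 850 bp in the morula. The median of the log2 ratio of morula to 16-cell width was 0.45, or 1.37-fold, with quartiles of -0.09 and 1.05. The morula peak was wider in 19918 regions (71.2%, 70.7% to 71.8%), narrower in 8017 (28.7%) and equal in 33. A width over 1.5-fold greater in the morula was seen in 43.6% of the regions, and over 1.5-fold smaller in 11.4%. The morula peak began a median of 97 bp before and ended a median of 98 bp after the 16-cell peak. The whole 16-cell peak lay inside the morula peak in 44.1% of the regions and the reverse held in 12.5%, whereas in 43.4% the morula peak reached further out at 1 end and less far at the other. The lists as wholes differed in the same direction, with median widths of 409 bp and 525 bp, a log2 ratio of 0.36. Relative to these medians the shared regions were wider in the morula by 0.09 on the log2 scale, and 54.5% of them had the wider peak in the morula. By percentile rank of width within each list, 51.1% ranked higher in the morula.

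**Figure D1:**
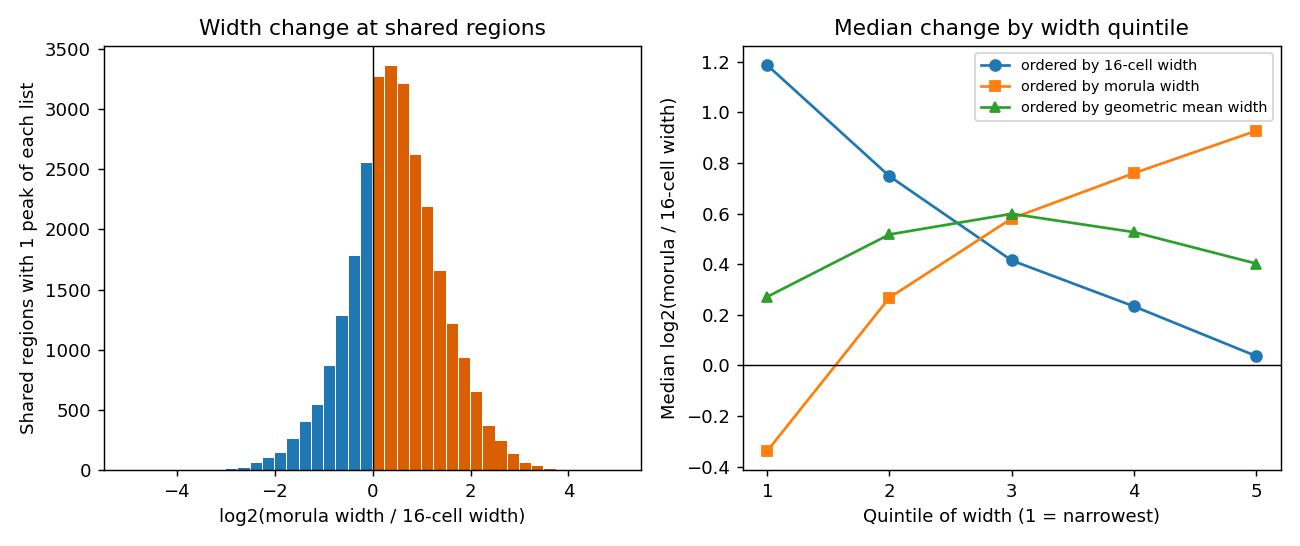
Width change at the 27968 shared regions with 1 peak of each list. The left panel counts regions by log2 of morula over 16-cell width in bins of 0.25, with wider (and 33 equal) morula peaks to the right of 0. The right panel gives the median log2 ratio in quintiles of the regions ordered by 16-cell width, by morula width or by the geometric mean of both. Ordering by 1 list alone puts the extremes of that list at opposite ends, whereas by the mean of both widths all 5 medians lie between 0.27 and 0.60.

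The order in which regions are taken affects how the change reads. In the narrowest quintile by 16-cell width the median went from 279 bp to 625.5 bp, and in the widest quintile from 1279 bp to 1364 bp. Ordered by morula width, the narrowest quintile was narrower in the morula, with medians of 433 bp and 351 bp, and the widest quintile was 949 bp at the 16-cell stage and 1782 bp in the morula. Each ordering selects extreme widths in 1 list, as the plot of width change shows. With the geometric mean of both widths, which favours neither list, the share of regions wider in the morula went from 63.5% in the narrowest quintile to 77.2% in the widest.

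The largest changes in width reached several kilobases. On chromosome 3, a 16-cell peak of 211 bp from 102942969 to 102943179 lay within a morula peak of 6159 bp from 102942088 to 102948246, and the in vivo morula had 3 peaks of 2505 bp in total there. On chromosome 7 the widths were 305 bp and 5952 bp, in the region from 93172874 to 93178825, where the in vivo morula had a single peak of 6047 bp. On chromosome 10, from 102027186 to 102032119, they were 407 bp and 4934 bp. None of these 3 regions had an 8-cell peak, and all 3 had peaks in the in vivo morula and at day 14. The largest losses of width were smaller than these gains. On chromosome 4 from 105408980 to 105413299 the peak measured 4292 bp at the 16-cell stage and 779 bp in the morula, and on chromosome 7 from 47368186 to 47371853 it measured 3668 bp and 167 bp. On chromosome 23 from 9394696 to 9398214 the widths were 3519 bp and 652 bp. All 3 of these regions had 8-cell peaks, with 727 bp, 2853 bp and 1503 bp in all. The in vivo morula had peaks in the regions on chromosomes 4 and 23 and none in that on chromosome 7.

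Between the extremes of width change, the 8-cell and in vivo morula lists, which played no part in measuring it, differed in opposite directions. Where the morula peak was over 2-fold wider, 42.6% (41.5% to 43.7%) of 7488 regions had an 8-cell peak and 72.2% (71.1% to 73.2%) an in vivo morula peak. Where it was over 2-fold narrower, 62.0% (59.6% to 64.5%) of 1536 regions had an 8-cell peak and 27.3% (25.1% to 29.7%) an in vivo morula peak. The 8-cell share did not fall steadily between these extremes. From the most narrowed to the most widened regions, in classes bounded at 2-fold, 1.5-fold and no change, it was 62.0%, 56.1%, 56.9%, 60.2%, 55.7% and 42.6%, whereas the in vivo morula share was 27.3%, 33.8%, 49.6%, 63.3%, 68.2% and 72.2%. A day 14 peak was found in 68.8% of the widened and 43.5% of the narrowed regions. Between wider and narrower regions as wholes, the order was the same for the 3 lists in all 5 quintiles of mean width. In the middle quintile, 48.1% of wider and 61.1% of narrower regions had an 8-cell peak, 69.7% and 39.3% an in vivo morula peak, and 66.9% and 50.03% a day 14 peak.

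Widths could be followed through 5 lists at 6254 regions with a single peak in each. Their median width was 808.5 bp at the 8-cell stage, 746 bp at the 16-cell stage, 1092 bp in the morula, 959 bp in the in vivo morula and 948.5 bp at day 14. The 16-cell peak was the widest of the 5 in 376 regions (6.01%), and the morula peak in 1828 (29.2%), more than for any other of these lists. The day 14 list had the smallest median width over all its peaks, 216 bp, against 948.5 bp at these regions.

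Morula only regions had the lowest share of 8-cell peaks. Shared regions had the highest, except after width weighting and at region widths of 1000 to 1500 bp and over 1500 bp. Of the shared regions, 17945 (55.9%, 55.4% to 56.5%) already had an 8-cell peak, against 8425 (21.0%, 20.6% to 21.4%) of the 16-cell only and 4496 (8.09%, 7.87% to 8.32%) of the morula only regions. The 16-cell only regions had a higher share than the morula only regions although they were narrower. Weighted to the widths of the shared regions, the share was 57.1% for 16-cell only and 11.3% for morula only regions. The 16-cell only class then no longer lay below the shared one, but the widths matched were unlike. A shared region spans the joined peaks of both lists, whereas an unshared region is 1 peak. The median was 1074 bp for shared regions, 578 bp for their 16-cell peaks and 884 bp for their morula peaks. With only peaks of at least 464 bp, the share was 69.2% for shared and 41.7% for 16-cell only regions. The weighted 16-cell only value also rests on few wide members. Of 32082 shared regions, 9004 measured 1000 to 1500 bp and 8715 over 1500 bp, against 820 and 159 of 40100 16-cell only regions. The 8-cell list covered 1.38% of the 2661 Mb spanned by the lists. Such a share of bases is below the share of regions that would meet a list by position alone. The latter rises with region width and was not computed. An in vivo morula peak was found in 20103 shared (62.7%, 62.1% to 63.2%), 2153 16-cell only (5.37%, 5.15% to 5.59%) and 13697 morula only regions (24.7%, 24.3% to 25.02%), with 1.60% of the span covered by that list. With the same weighting the unshared classes stood at 11.9% and 57.6%.

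The differences between 16-cell only and morula only regions in the 8-cell and in vivo morula lists grew with width. Among regions over 1500 bp, 126 of the 159 that were 16-cell only (79.2%, 72.1% to 85.3%) had an 8-cell peak, as did 71.2% (70.3% to 72.2%) of 8715 shared regions. Widths of shared regions are joined spans of the peaks of both lists here, unlike the single peaks of the other classes. Of the 1374 morula only regions over 1500 bp, only 158 (11.5%, 9.86% to 13.3%) had an 8-cell peak. Their 8-cell share differed little from the 10.2% found for morula only regions of 500 to 700 bp, so a wide morula only region was hardly more often open at the 8-cell stage than one of moderate width. In the in vivo morula list the positions were exchanged. Above 1500 bp, 1155 of the morula only regions (84.1%, 82.0% to 86.0%) had a peak there, close to the 87.6% (86.9% to 88.3%) of shared regions, against 24 of the 16-cell only regions (15.1%, 9.92% to 21.6%). At 300 bp or less the shares in the in vivo morula were 10.5% for morula only and 4.03% for 16-cell only regions. Most wide 16-cell only regions, 105 of 159, had an 8-cell peak and none in the in vivo morula, and most wide morula only regions, 1018 of 1374, had an in vivo morula peak and none at the 8-cell stage.

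**Figure D2:**
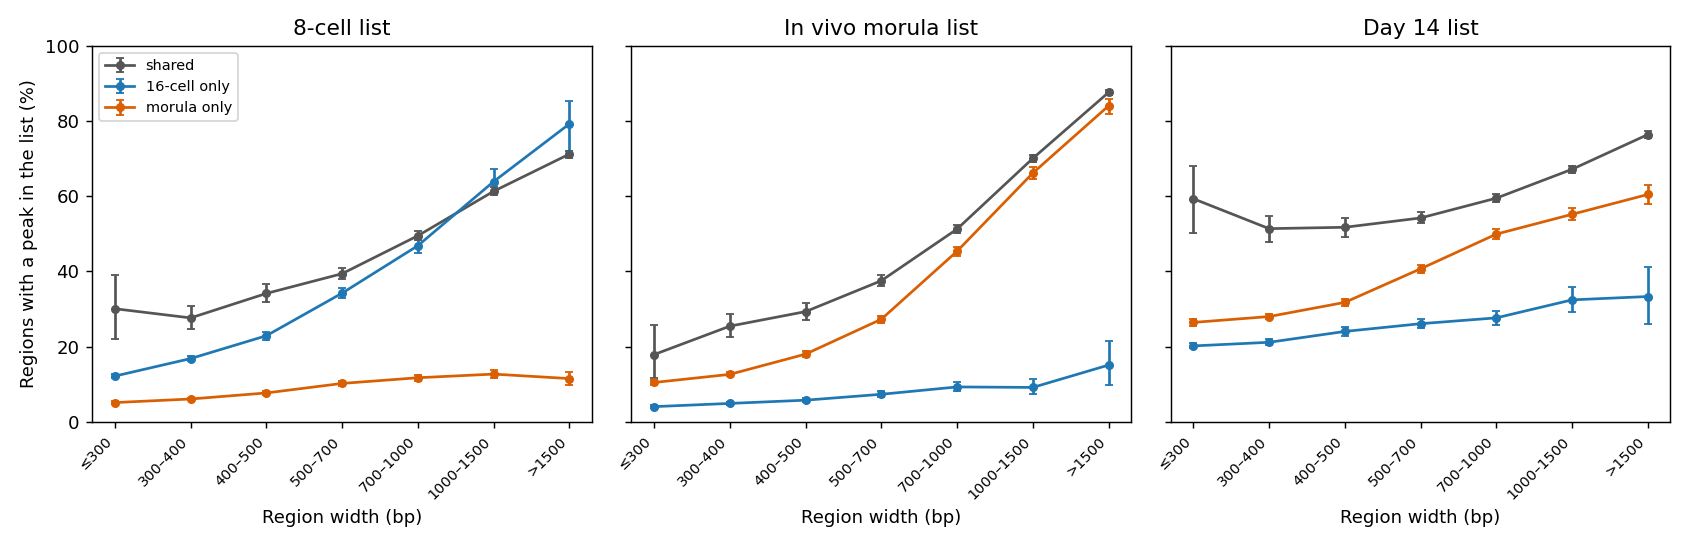
Share of regions with a peak in the 8-cell, in vivo morula and day 14 lists (y axis, percent) by region width in bp (x axis), for shared, 16-cell only and morula only regions. Bars are 95% exact intervals of counting error. The 16-cell only curve runs close to the shared curve in the 8-cell panel at widths over 700 bp, and the morula only curve does so in the in vivo morula panel.

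The widest 16-cell only peaks lay on chromosome 8 from 28965786 to 28968628 (2843 bp), on chromosome 5 from 12200951 to 12203710 (2760 bp) and on chromosome 3 from 37349796 to 37352439 (2644 bp). The region on chromosome 3 overlapped an 8-cell peak of 5788 bp. That on chromosome 8 overlapped 8-cell peaks of 1420 bp in total and an in vivo morula peak of 271 bp. The region on chromosome 5 had no peak in any other list. The widest morula only peaks were larger. Those on chromosome 12 from 70285512 to 70290313 (4802 bp) and from 86100592 to 86105197 (4606 bp) overlapped in vivo morula peaks of 2276 bp and 4342 bp. The peak on chromosome 13 from 22852544 to 22857139 (4596 bp) overlapped 2 in vivo morula peaks of 2895 bp. None of these 3 morula regions had an 8-cell peak.

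A day 14 peak was found in 20832 shared regions (64.9%, 64.4% to 65.5%), 9006 16-cell only regions (22.5%, 22.1% to 22.9%) and 19788 morula only regions (35.6%, 35.2% to 36.0%). The day 14 list covered 4.66% of the span, again a share of bases and not of regions that would meet it by position alone. The share of 16-cell only regions went from 20.2% (19.5% to 20.8%) at 300 bp or less to 33.3% (26.1% to 41.2%) above 1500 bp, and that of morula only regions from 26.4% (25.6% to 27.3%) to 60.5% (57.8% to 63.1%). With the unshared regions reweighted to the width distribution of shared regions, 29.2% of the 16-cell only and 51.8% of the morula only regions had a day 14 peak.

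Shared regions with an 8-cell peak had a day 14 peak in 71.4% (70.7% to 72.0%) of cases, and those without one in 56.8% (55.9% to 57.6%). For morula only regions the shares were 50.2% (48.7% to 51.7%) and 34.3% (33.9% to 34.8%). Among 16-cell only regions they were 23.6% (22.7% to 24.5%) and 22.2% (21.7% to 22.6%), a smaller difference. Regions with an 8-cell peak were wider in each class, with medians of 1229 bp and 903 bp for shared, 517 bp and 414 bp for morula only and 434 bp and 324 bp for 16-cell only regions, and the part of width in these differences was not tested. Day 14 shares also differed by presence in the in vivo morula, with 76.9% and 44.9% of shared regions, 55.5% and 29.1% of morula only regions and 44.0% and 21.2% of 16-cell only regions having a day 14 peak with and without it. Here too the regions with the peak were wider, with medians of 1288 bp and 799 bp for shared, 664 bp and 386 bp for morula only and 385 bp and 338 bp for 16-cell only regions.

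**Figure D3:**
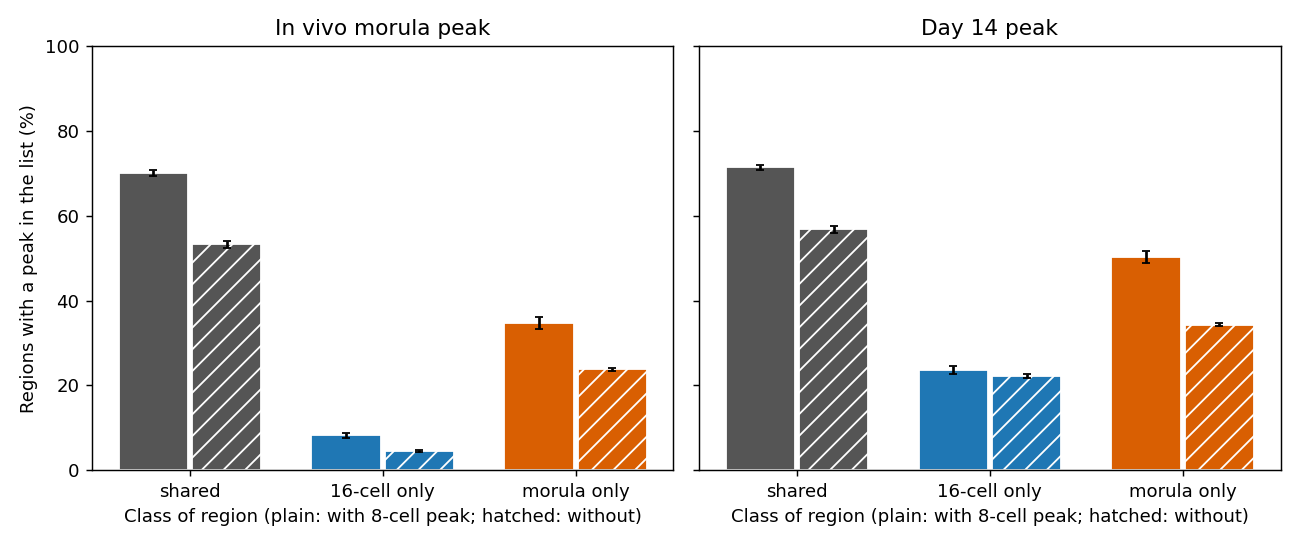
Share of regions (y axis, percent) with a peak in the in vivo morula (left) and day 14 (right) lists, by class, for regions with (plain bars) and without (hatched bars) an 8-cell peak. Error bars are 95% exact intervals of counting error. The day 14 bars for 16-cell only regions stand at 23.6% and 22.2%, whereas those for morula only regions stand at 50.2% and 34.3%.

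Many unshared regions were found in no other list at all. This held for 23663 of the 16-cell only regions (59.0%, 58.5% to 59.5%) and 27704 of the morula only regions (49.9%, 49.5% to 50.3%), against 3580 of the shared regions (11.2%, 10.8% to 11.5%). They were narrow, with medians of 320 bp, 373 bp and 723 bp. Overlap with the blastocyst lists was rare in every class. The lists hold 3397 and 2587 peaks, and overlap stood at 2.19% of shared, 0.394% of 16-cell only and 0.517% of morula only regions for the list without the in vivo label.

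Chromosomes differed in which list held more of their peaks. Peak numbers in the morula were 1.17 times those at the 16-cell stage over the genome, but 1.73 times on the X chromosome, with 2186 and 3785 peaks. X held 2.88% of the 16-cell list and 4.26% of the morula list, a ratio of 1.48. The next highest ratio was 1.24 on chromosome 12. Over all chromosomes there were 1.39 times as many morula only as 16-cell only regions, and morula only regions were the more numerous on 26 of 30 chromosomes. In the 15 stretches of 10 Mb along X the ratio was 1.98 to 6.74, above that of the whole in each. X also had the highest share of shared 16-cell peaks, 59.3% (57.2% to 61.4%), followed by chromosome 18 with 53.5% (51.4% to 55.6%), and the largest share of widened regions, 79.8%. The lowest shares of shared 16-cell peaks were on chromosome 13, 39.9% (38.0% to 41.8%), and chromosome 27, 40.4% (37.6% to 43.3%). Counted over morula peaks, the shared part was 31.6% on X and 42.1% on chromosome 13, against 37.5% of the whole list. It was 47.7% on chromosome 18 and 35.0% on chromosome 27.

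Only chromosomes 13, 19, 25 and 26 had a lower number of morula than of 16-cell peaks, with 0.916, 0.931, 0.831 and 0.898 times as many. They are described together here because of these values. They held 9.86% of the 8-cell list, 9.81% of the 16-cell list, 7.56% of the morula list, 8.25% of the in vivo morula list and 15.4% of the day 14 list. Counted in bases they did not decline, with 1.17 times the covered length in the morula, which is below the 1.57 times of the whole lists. Among peaks of at least 464 bp, no chromosome had fewer peaks in the morula. That cut kept 32132 16-cell and 50425 morula peaks. Under it the ratio of list shares for chromosomes 13, 19, 25 and 26 together was 0.785, against 0.770 over all peaks.

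**Figure D4:**
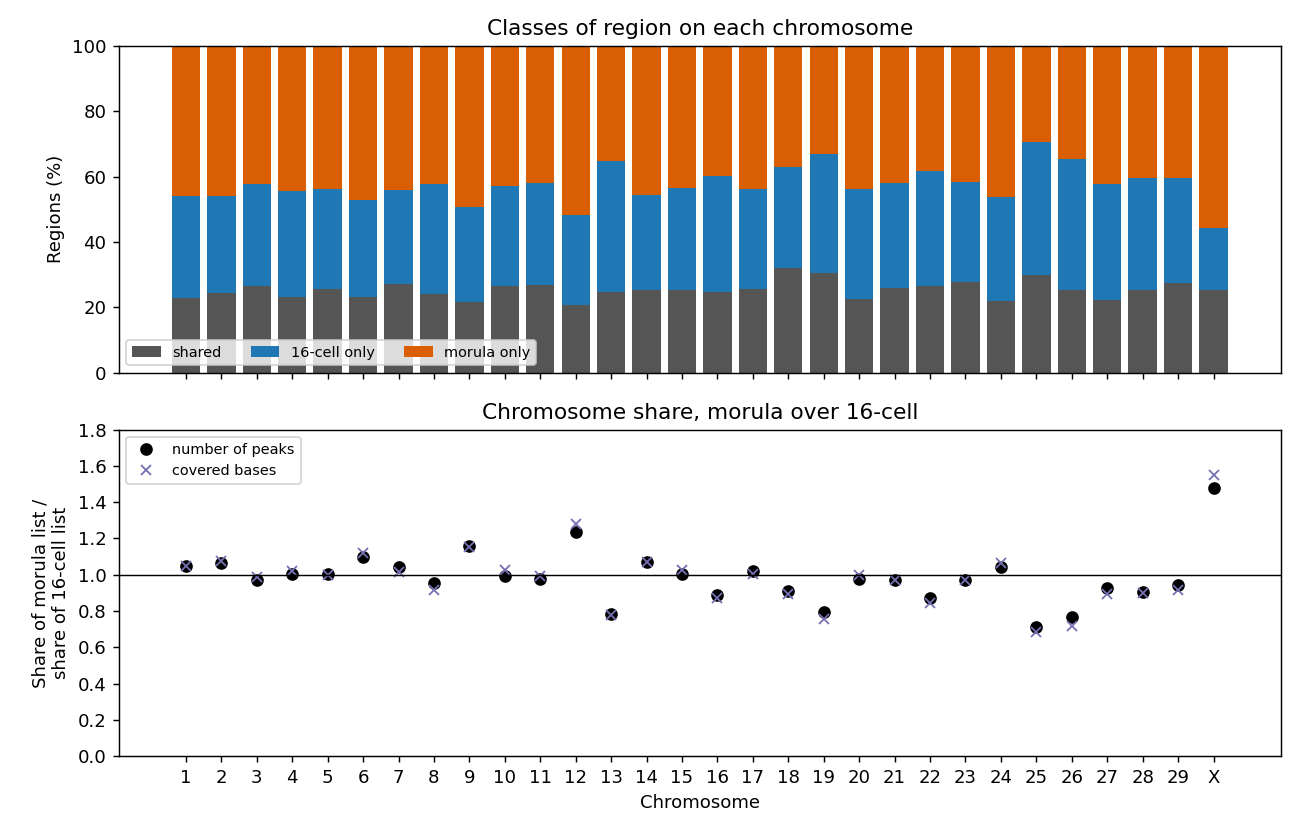
Classes of region (upper panel, percent of the regions of each chromosome) and the share of each chromosome in the morula list divided by its share in the 16-cell list (lower panel), by number of peaks (circles) and covered bases (crosses). X lies highest in the lower panel at 1.48 by peaks, and chromosomes 25, 26, 13 and 19 lie lowest, from 0.710 to 0.796.

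Later presence differed between these chromosomes too. Morula only regions had an in vivo morula peak in 14.8% (13.4% to 16.2%) of cases on X, 27.7% (26.3% to 29.2%) on chromosomes 13, 19, 25 and 26 and 24.95% (24.6% to 25.3%) on the other autosomes. A day 14 peak was found in 22.4% (20.8% to 24.1%), 53.7% (52.1% to 55.3%) and 35.0% (34.6% to 35.4%) of them. Shared regions had a day 14 peak in 48.7% (45.8% to 51.6%), 79.3% (77.8% to 80.8%) and 64.1% (63.5% to 64.7%) of cases. Among 16-cell only regions the order at day 14 was the same, with 11.9%, 34.9% and 21.2%. The day 14 list itself had 1.02% of its peaks on X and 15.4% on chromosomes 13, 19, 25 and 26. The part of list density in these shares was not tested. The in vivo morula list had 2.17% of its peaks on X, against 3.26% at the 8-cell stage. Shared regions had an 8-cell peak in 56.1% (53.2% to 58.9%), 60.2% (58.4% to 61.9%) and 55.5% (54.9% to 56.1%) of cases in the 3 sets.

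Peaks were also counted by midpoint in 1 Mb windows, with each count divided by its list total. Over the 2678 windows with a peak in either list the 16-cell and morula counts had a Spearman correlation of 0.81, a description over windows that share the same libraries within each list. In the 2555 windows with 20 or more peaks in both lists together, the quartiles of the ratio of morula to 16-cell share were 0.804 and 1.25. The morula share was over 2-fold higher in 92 windows (3.6%) and over 2-fold lower in 62 (2.43%). Counting error alone is large in windows with few peaks. Of the 2555 windows compared, the 95% interval of the ratio lay wholly above 1 in 138 and wholly below 1 in 112. With so many windows, counting error by itself places some intervals wholly to 1 side of 1, and how many was not computed. The intervals also take peaks as independent of their neighbours and may be too narrow where peaks lie close together. The counts are thus not numbers of windows shown to differ. In windows of 500 kb, 10.03% differed over 2-fold, and in windows of 5 Mb 1.10%, against 6.03% at 1 Mb.

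The windows count the same peaks as the chromosome ratios by which X and chromosomes 13, 19, 25 and 26 were singled out, so their place only shows how those ratios were spread. X held 27 of the 92 windows that were higher in the morula and 1 of the 62 that were lower, out of 126 X windows compared. Chromosomes 13, 19, 25 and 26 held none of the higher and 25 of the lower windows, out of 226. The in vivo morula and 8-cell lists, not used in the choice of windows, differed in the same direction. In the 92 higher windows the in vivo morula share was 1.48 times the 8-cell share (2.71% and 1.83% of the lists), and in the 62 lower windows 0.471 times (0.941% and 2.00%), against 1.01 times over all windows compared. These values pool X and autosomes. X as a whole differed the opposite way, with 2.17% of the in vivo morula list and 3.26% of the 8-cell list.

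The highest ratios were found on X between 21 and 22 Mb, with 2 peaks at the 16-cell stage and 19 in the morula (8.12, interval 1.96 to 71.9), and on X between 66 and 67 Mb, with 2 and 18 (7.69, 1.84 to 68.3). The third was on chromosome 8 between 18 and 19 Mb, with 4 and 25 (5.34, 1.84 to 21.1). In both X windows the other lists differed the opposite way, with 15 and 6 peaks at the 8-cell stage and 2 and 1 in the in vivo morula. On chromosome 8 they had 3 and 7. The lowest ratios were on chromosome 26 between 48 and 49 Mb, with 18 peaks at the 16-cell stage and 3 in the morula (0.142, 0.0269 to 0.488), and on chromosome 25 between 30 and 31 Mb, with 20 and 4 (0.171, 0.0425 to 0.510), and between 29 and 30 Mb, with 22 and 5 (0.194, 0.0575 to 0.525). These 3 windows had 1, 2 and 2 peaks in the in vivo morula, 8, 16 and 10 at the 8-cell stage, and 82, 119 and 141 at day 14.

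**Figure D5:**
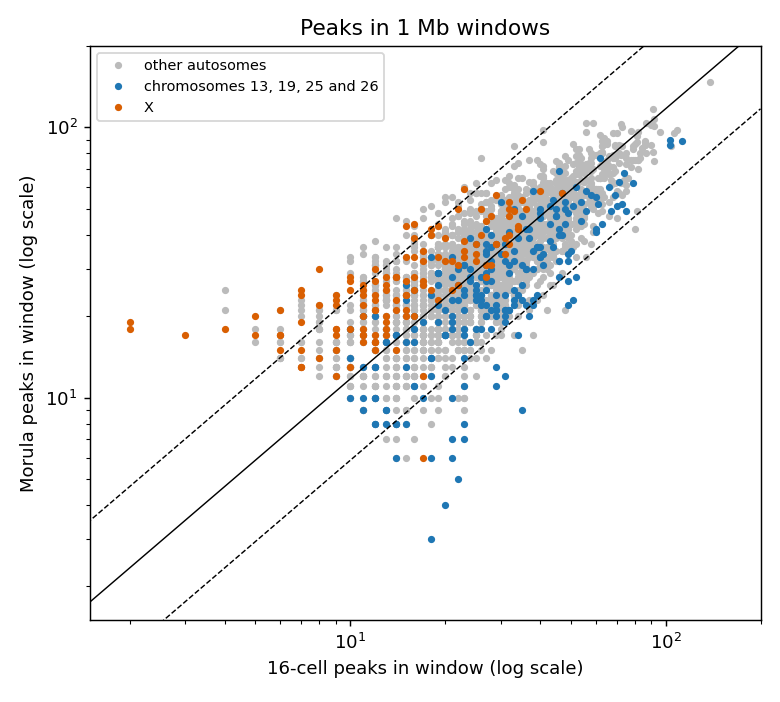
Number of 16-cell (x axis) and morula (y axis) peaks in each of 2555 windows of 1 Mb, both on log scales, with X and chromosomes 13, 19, 25 and 26 in colour. The solid line marks equal shares of both lists and the dashed lines a 2-fold difference. Of the 92 windows above the upper dashed line 27 are on X, and 25 windows of chromosomes 13, 19, 25 and 26 lie below the lower dashed line.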

How the data were processed

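The authors deposited 1 peak list per group, giving each peak's chromosome and its bounds in bp (an other-type unit, positions with no score, count or p-value). The tools named per the submitters' processing notes are Bowtie2 2.3, MACS2, HOMER and bedtools, and the build is UMD3.1. The series description says that peaks of single libraries were merged by stage. The rule of merging and the settings are not given in its text or the labels. Lists were read as BED files, with printed starts counted from 1, a convention the files do not state. Overlaps, widths, windows and intervals were computed with Python 3.11.15, numpy 2.4.6, pandas 2.3.3 and scipy 1.17.1, and figures drawn with matplotlib 3.10.9. Overlap functions were tested on simulated data, and 20 overlap counts on the real lists were equal to those of bedtools 2.31.1. Chromosome lengths are the last position in any list. Named regions are the widest peak of each list, the 3 widest unshared peaks of each, the 3 largest gains and losses of width, the 3 regions with the most peaks of 1 list under 1 peak of the other, the 3 highest and lowest windows, and the 2 chromosomes with the highest and lowest shares of shared 16-cell peaks. Members, rules and alternatives were chosen with earlier results of these data known. Gene context and sequence, part of the plan, were not analysed here, because the gene table at hand is of another assembly.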

Additional observations from a re-analysis of the deposited data

How the results depend on the processing

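No paired analysis was possible because each group has 1 merged list and no test was made, and for the same reason no replicate could be left out. Several orderings depended on the choices made. Shared peaks were the majority of the 16-cell list in 2 settings (widened peaks and peaks of at least 464 bp). Regions of the 16-cell only class passed shared ones at the 8-cell stage after width weighting. That weighting set joined spans of shared regions against single peaks. Under the 3 alternatives run on all 3 classes, shared regions had the highest 8-cell share. The chromosomes with fewer morula peaks went from 4 to 0 by covered bases. By that measure chromosomes 13, 19, 25 and 26 together went from 0.901 to 1.17 times the 16-cell level. An 8-cell peak was more frequent in 16-cell only than in morula only regions, and a day 14 or in vivo morula peak less frequent, under all 4 alternatives run on them. With an overlap of 50% of both peaks, 22.8% of 16-cell and 19.5% of morula peaks were shared, 66.5% of single pairs were wider in the morula, and shared regions were present in 62.8% (8-cell), 66.5% (day 14) and 64.4% (in vivo morula); unshared classes were kept as they were. With peaks of at least 464 bp, classes were formed anew, so a peak whose only counterpart was narrower than that counted as unshared. In that setting 61.2% of 16-cell peaks were shared, 72.8% of pairs were wider, and presence for shared, 16-cell only and morula only regions was 69.2%, 41.7% and 17.1% at the 8-cell stage, 71.0%, 30.5% and 50.1% at day 14 and 75.7%, 11.6% and 45.1% in the in vivo morula. With midpoints in place of any overlap, 41.1% of 16-cell and 28.1% of morula peaks were shared, and presence was 43.8%, 16.4% and 5.11%, then 47.0%, 12.8% and 22.9%, then 51.9%, 3.57% and 18.8%, in the same order. Joining peaks closer than 500 bp gave 38.8% of morula peaks shared and 70.1% of pairs wider, 56.7% and 20.3% of shared and 16-cell only regions at the 8-cell stage, 66.2% and 36.0% of shared and morula only regions at day 14, and 63.6% and 5.04% of shared and 16-cell only regions in the in vivo morula. Weighting unshared regions to the widths of shared ones gave 57.1% and 11.3% for 16-cell only and morula only regions at the 8-cell stage, 29.2% and 51.8% at day 14, and 11.9% and 57.6% in the in vivo morula. Widening peaks by 250 bp gave shared shares of 50.3% and 39.96% for the 16-cell and morula lists, taking the widest morula peaks at equal list length 45.1% and 41.4%, and leaving out regions that recur in short lists 46.6% and 36.9%. By width rank 51.1%, and by width over the list median 54.5%, of pairs were wider in the morula. Windows differing over 2-fold made up 1.10% at 5 Mb, 10.03% at 500 kb, 9.20% by covered bases, 8.73% with peaks of at least 464 bp and 3.43% with a minimum of 40 peaks. By covered bases 0 chromosomes were lower in the morula and chromosomes 13, 19, 25 and 26 had a ratio of list shares of 0.744. With peaks of at least 464 bp 0 chromosomes were lower, the X ratio was 1.69 and that of chromosomes 13, 19, 25 and 26 was 0.785. The minimum of 40 peaks and the chromosome values with wide peaks were chosen after seeing the data. The cause of these shifts was not tested. Depth is unknown, so a region missing from a list may lie below its threshold.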

Other observations

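Regions with a peak at the 8-cell stage and in the morula but none at the 16-cell stage numbered 4496. Their median width was 517 bp, and 50.2% (48.7% to 51.7%) had a day 14 peak. Regions in both morula lists but in neither the 8-cell nor the 16-cell list numbered 12135, with a median width of 657 bp and a day 14 peak in 53.7% (52.8% to 54.6%) of cases. The 2153 regions of the 16-cell and in vivo morula lists that the other morula list lacked had a day 14 peak in 44.0% (41.9% to 46.2%) of cases.

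The oocyte and early cleavage lists, which are short, met mainly shared regions. A germinal vesicle oocyte peak was found in 3.64% (3.44% to 3.85%) of shared, 0.372% (0.314% to 0.436%) of 16-cell only and 0.538% (0.479% to 0.603%) of morula only regions. For the 4-cell list the shares were 5.05% (4.81% to 5.30%), 0.661% (0.584% to 0.745%) and 0.751% (0.681% to 0.826%). Shared regions were the wider class, and the part of width was not tested. The median gap from 1 peak to the next was 12713 bp at the 16-cell stage and 10914 bp in the morula, and 15.0% and 15.9% of gaps were under 1 kb. On the autosomes, 6.30% of morula only, 5.34% of 16-cell only and 5.57% of shared regions lay within 5 Mb of the chromosome end with the higher coordinates. At the other end morula only regions had the lowest share, with 4.21%, against 4.44% and 4.65%.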
